A study of Mus musculus with 10 samples.

Results

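The genes described here are 38 antioxidant and glutathione enzymes with their main regulator, measured by RNA sequencing of mouse hearts. They were taken by gene symbol from the deposited expression tables and are 38 of 46786 genes at 3 months and 38 of 46977 genes at 12 months. Hearts came from Prdm16 knockout mice and from mice labelled control, with 3 knockout and 3 control libraries at 3 months of age and 2 knockout and 2 control libraries at 12 months. Prdm16 is a zinc finger transcription regulator. The strain, the deleted exons, the Cre driver if any, the genotype of the controls beyond that label and the number of animals behind a library are details not given in the labels used here. Nothing says that libraries of a group came from separate animals, so the p-values measure the spread between these libraries, which may be technical. Levels are in FPKM, which corrects fragment counts for the length of a transcript and for the depth of a library.

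Superoxide leaking from the respiratory chain is turned into hydrogen peroxide by superoxide dismutases. Catalase, the glutathione peroxidases and the peroxiredoxins then remove the peroxide. The peroxidases and peroxiredoxins, unlike catalase, draw on glutathione or on thioredoxin, which are recharged by reductases that use NADPH. The glutathione transferases join glutathione to reactive lipids and foreign compounds. The transcription factor NRF2, encoded by Nfe2l2, raises many of these genes by binding antioxidant response elements. Cardiac muscle is dense in mitochondria and so holds a large share of these enzymes in that compartment.

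Some of the enzymes carry selenocysteine at the active site, read from an in-frame TGA that elsewhere would end the protein. An in-frame TGA inside the annotated coding sequence was found in 5 of the 38 genes, against 48 of 21592 genes with a complete coding sequence. The sequences around it, from GENCODE M21 transcripts on GRCm38, are shown because these are the members whose peroxidase or reductase chemistry depends on that codon. The TGA is in capitals, with 6 codons before it and up to 6 after it.
Gpx1: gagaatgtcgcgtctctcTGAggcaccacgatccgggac
Gpx3: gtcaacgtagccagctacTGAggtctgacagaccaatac
Gpx4: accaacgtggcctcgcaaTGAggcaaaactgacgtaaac
Txnrd1: atcctccagtctggctgcTGAggttaa
Txnrd2: cctactgtgactggttgcTGAggctaa
In the peroxidases the codon lies in the front or middle part (codon 47 of 202 in Gpx1, 73 of 227 in Gpx3, 129 of 254 in Gpx4). In the thioredoxin reductases it is the last codon but 1 before the stop (codon 612 of 614 in Txnrd1, 526 of 528 in Txnrd2). Gpx7 and Gpx8 had none.

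The promoters were searched for TGACNNNGC, a core of the antioxidant response element, on both strands of a 300-base window that runs from 250 bases before to 50 after each start site. RefSeq promoters on GRCm38.p6 were matched for 31 of the 38 genes. The core was in 8 of the 31 (25.8%), against 14.0% of 27025 genes and 17.1% of the 9305 that were expressed enough to be tested. The 8 were Gsta3, Nfe2l2, Srxn1, Gclm, Prdx1, Mgst1, Txnrd1 and Sod1. Cat and Nqo1, which were among the members of lowest p for the difference between ages, were not among the 8. The 3 stretches below belong to other genes among those with the lowest p for that difference, with the match in capitals. Gclm carries it on the opposite strand, so its capitals are the reverse complement.
Nfe2l2, chr2:75704853-75704913, minus strand: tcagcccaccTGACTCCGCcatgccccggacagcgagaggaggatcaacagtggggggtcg
Gsta3, chr1:21240420-21240510, plus strand: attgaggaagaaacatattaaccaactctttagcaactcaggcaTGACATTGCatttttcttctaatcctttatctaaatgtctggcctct
Gclm, chr3:122245377-122245467, plus strand: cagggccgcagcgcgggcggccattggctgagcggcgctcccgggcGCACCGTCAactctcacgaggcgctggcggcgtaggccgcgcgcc
The first base of the match lay 240 bases before the start in Nfe2l2, 121 before it in Gsta3 and 134 before it in Gclm. A match is a description of letters and not a bound site.

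Several features of the libraries bear on every value. Prdm16 itself read 1.43, 0.760 and 2.03 FPKM in knockout hearts, against 1.44, 2.23 and 1.61 FPKM in control hearts at 3 months. At 12 months Prdm16 read 4.02 and 3.58 FPKM in knockout hearts, against 6.31 and 5.05 FPKM in controls. It did not pass the test at either age (limma, Benjamini-Hochberg adjusted p = 0.602 and 0.340), so the targeted gene checks the labels only weakly. Cardiomyocyte markers summed to 31262 to 32282 FPKM in knockout and 24212 to 30429 FPKM in control hearts at 3 months, and to 61415 to 61786 FPKM in knockout and 57726 to 57756 FPKM in control hearts at 12 months. At 12 months the inactive-X transcript Xist read 0.0911 and 0.0240 FPKM in knockout libraries, against 33.1 and 31.0 FPKM in controls, and the Y-linked Ddx3y 24.5 and 20.7 FPKM in knockout libraries, against 0.0352 and 0.0114 FPKM in controls. Knockout status and sex therefore cannot be told apart at 12 months. All 6 libraries at 3 months had Xist at 0.490 FPKM or less. Red blood cell markers differed in opposite directions at the ages, with sums of 2093 to 3123 FPKM in knockout and 827 to 1121 FPKM in control hearts at 3 months, and 1985 to 2184 FPKM in knockout and 10712 to 10848 FPKM in control hearts at 12 months (5 of 6 tested called higher in knockouts at 3 months and 5 of 6 called lower at 12 months). Adipocyte markers summed to 5.62 to 24.6 FPKM in knockout and 2.69 to 36.8 FPKM in control hearts at 3 months, and to 11.4 to 14.6 FPKM in knockout and 84.1 to 87.1 FPKM in control hearts at 12 months (0 of 3 called at 3 months and 3 of 8 called lower at 12 months). Atrial markers summed to 12363 to 28796 FPKM in knockout and 726 to 6259.7 FPKM in control hearts at 3 months, and to 13735 to 15990.0 FPKM in knockout and 6243 to 6404 FPKM in control hearts at 12 months (1 of 10, Nppa, called higher at 3 months and 0 of 10 called at 12 months). These sums are mostly Nppa, and at 12 months 6 of the 10 differences were below 0, with Myl7 at 153 and 749 FPKM in knockout and 1275 and 1244 FPKM in control hearts. Fibroblast markers summed to 301 to 496 FPKM in knockout and 259 to 382 FPKM in control hearts at 3 months, and to 743 to 843 FPKM in knockout and 1054 to 1066 FPKM in control hearts at 12 months, where 6 of 7 were below their controls (0 of 7 called at either age). Lymphocyte and neutrophil markers summed to 26.1 to 44.1 FPKM in knockout and 13.1 to 18.5 FPKM in control hearts at 3 months (2 of 7 tested, Gzma and Nkg7, called higher), and to 13.2 to 33.8 FPKM in knockout and 43.7 to 44.4 FPKM in control hearts at 12 months (0 of 6 called). Skeletal muscle markers summed to 442 to 519 FPKM in knockout and 189 to 193 FPKM in control hearts at 12 months. Of 5 tested, 1 (Acta1) was called higher, and 2 of the 5 differences were below 0, the lowest at -1.51. In the airway and lung list, the sums were 0.151 to 0.364 FPKM in knockout and 14.3 to 38.8 FPKM in control hearts at 3 months, and at most 0.0767 FPKM at 12 months (2 of 3 tested called lower at 3 months, none tested at 12 months). The part of these cell types, or of sex at 12 months, in the values below was not tested, and in whole hearts fewer cells of a type cannot be told apart from less RNA per cell.

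At 3 months no antioxidant gene passed the test across all genes. Of the 38, 0 were called by limma at an adjusted p of 0.05, where 0.746% of all 12200 genes were called. At an unadjusted p under 0.05 there were 15, which were 13 higher and 2 lower in knockout hearts, against 18.2% of all genes (15.9% higher and 2.30% lower). The log2 difference was above 0 in 28 of 38 members, against 65.0% of all genes, with a median of 0.24 over the members and 0.09 over all genes. With median-of-ratios scaling it was above 0 in 25 of 38, with a median of 0.13. The knockout libraries did not overlap the controls in 18 members, 16 above and 2 below, where 24.7% of all genes stood apart (20.1% above and 4.60% below). With 3 against 3 libraries the smallest exact two-sided permutation p is 0.1, which each of these 18 reached.

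Among the peroxide-reducing enzymes at 3 months, Gpx1 had the lowest p. Gpx1, the cytosolic and mitochondrial glutathione peroxidase, read 196, 300.4 and 198 FPKM in knockout hearts, against 126, 103 and 118 FPKM in controls. Every knockout library was above every control, with means of 232 ± 59.6 FPKM in knockout and 116 ± 11.7 FPKM in control hearts (SD, n = 3 each), a 2.00-fold ratio. The log2(FPKM + 1) difference was 0.97 (SE 0.19), which missed the threshold (limma, Benjamini-Hochberg adjusted p = 0.0595). Gpx1 is also abundant in red blood cells, whose markers were higher in the same libraries, and their part in this value was not tested. The gene passed among genes of at least 5 FPKM alone (adjusted p = 0.0400) and on values rescaled to a common sum (adjusted p = 0.0364).

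The other glutathione peroxidases had differences above 0 as well, 5 of 5 in all, with a median of 0.40. Gpx3, the secreted plasma enzyme, read 739, 1514 and 1383 FPKM in knockout hearts, against 158, 427 and 1044 FPKM in controls, and the third control lay above the first knockout. Its difference was 1.48, with an SE of 0.59 (adjusted p = 0.232), and it was 0.79 without control replicate 1 and 2.15 without control replicate 3. The atrial marker Myl7 read 113, 2568 and 891 FPKM in the same knockout libraries and 84.2, 39.4 and 779 FPKM in the same controls. Of the 10 atrial markers 9 had differences above 0 at 3 months, and 1, Bmp10, was below (-0.66). The part of atrial tissue in the Gpx3 value was not tested. Gpx4, which reduces lipid hydroperoxides within membranes, read 309, 287 and 293 FPKM in knockout and 320.3, 239 and 245 FPKM in control hearts. These groups overlapped. The endoplasmic reticulum enzymes Gpx7 and Gpx8 differed by 0.30 and 0.40, with Gpx8 alone apart from its controls.

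Among superoxide dismutases and catalase, 2 of 4 were above 0. Sod1, the cytosolic enzyme, read 339, 410.3 and 331 FPKM in knockout hearts, against 309, 316 and 267 FPKM in controls, without overlap. Sod2, its mitochondrial counterpart, differed by -0.19, with overlapping groups. Extracellular Sod3 read 10.3, 12.3 and 11.2 FPKM in knockout and 8.30, 9.87 and 13 FPKM in control hearts, which overlapped (0.12). Cat, the peroxisomal catalase, was lower, at 49.9, 40.4 and 50.9 FPKM in knockout and 62.4, 64.3 and 51.3 FPKM in control hearts. Its difference of -0.33 (SE 0.14) did not pass (adjusted p = 0.273), and the closest libraries were 50.9 FPKM in a knockout and 51.3 FPKM in a control.

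The peroxiredoxins and sulfiredoxin had 6 of 7 differences above 0 at 3 months, with a median of 0.14. With median-of-ratios scaling, which sets the median of all genes to 0.00, this was 4 of 7 (median 0.04), and without knockout replicate 2 it was 5 of 7 (median 0.06). Prdx4, the peroxiredoxin of the endoplasmic reticulum, read 18.7, 28.9 and 19.4 FPKM in knockout hearts, against 16.5, 12.6 and 12.9 FPKM in controls, a difference of 0.62 (SE 0.18, adjusted p = 0.164). Cytosolic Prdx2 read 276, 419 and 266 FPKM in knockout and 255, 208 and 203 FPKM in control hearts. Both genes were highest in knockout replicate 2. Prdx5, found in several compartments, was apart from its controls with a difference of 0.27, whereas Prdx1 and mitochondrial Prdx3 differed by 0.14 and 0.09 with overlap. Prdx6 read 116, 141 and 116 FPKM in knockout and 131, 130.0 and 103 FPKM in control hearts. Srxn1, which rescues overoxidised peroxiredoxins, read 6.56, 6.47 and 7.5 FPKM in knockout and 7.57, 8.34 and 6.95 FPKM in control hearts, and the groups of both genes overlapped (0.03 and -0.14).

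In the thioredoxin system, Txnip had the largest separation at 3 months. Txnip, which binds thioredoxin and inhibits it, read 512, 797 and 484 FPKM in knockout hearts, against 307, 363 and 311 FPKM in controls. Each knockout value exceeded the highest control, with a difference of 0.83 (SE 0.20, adjusted p = 0.111). Mitochondrial Txn2 was apart from its controls by 0.21, and cytosolic Txn1 overlapped them (0.31). The mitochondrial reductase Txnrd2 read 37.0, 72 and 31.8 FPKM in knockout and 19.7, 25.6 and 36.8 FPKM in control hearts, and cytosolic Txnrd1 read 273, 113 and 189 FPKM in knockout and 371, 182 and 186 FPKM in control hearts. For both reductases the SD of the knockout libraries (21.9 FPKM for Txnrd2 and 79.7 FPKM for Txnrd1) exceeded the gap between the group means.

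Glutathione transferases formed the largest block of separated genes at 3 months, with 7 of 9 above their controls, against 20.1% of all genes. Their differences were above 0 in 8 of 9 cases, against 65.0% of all genes (median 0.37, and 0.26 with median-of-ratios scaling). Gstk1, of mitochondria and peroxisomes, read 57.0, 77.4 and 55.3 FPKM in knockout hearts, against 42.6, 39.7 and 33.4 FPKM in controls, a difference of 0.69 (SE 0.16, adjusted p = 0.107). The theta-class enzyme Gstt1 read 15.2, 20.3 and 17.3 FPKM in knockout and 8.20, 9.03 and 13.3 FPKM in control hearts (0.75, SE 0.18, adjusted p = 0.113). The pi-class enzyme Gstp1 read 78.2, 100 and 79.4 FPKM in knockout and 64.5, 57.6 and 54.0 FPKM in control hearts (0.54, SE 0.14, adjusted p = 0.135). In all 3 genes the lowest knockout library lay above the highest control. Mgst1, a membrane-bound transferase and peroxidase, read 40.3, 54.5 and 36.3 FPKM in knockout and 29.0, 26.4 and 33.2 FPKM in control hearts. The mu-class genes Gstm1 and Gstm2 and the microsomal Mgst3 were also apart, by 0.37, 0.36 and 0.33. The alpha-class genes overlapped, with Gsta4 at 0.11 and Gsta3 at -0.16. Gsta3 read 3.14, 2.63 and 3.28 FPKM in knockout and 4.63, 2.70 and 3.30 FPKM in control hearts. Gstp1 and the mu-class genes have close copies in the genome, and the labels do not say how shared reads were divided among them.

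**Figure D1:**
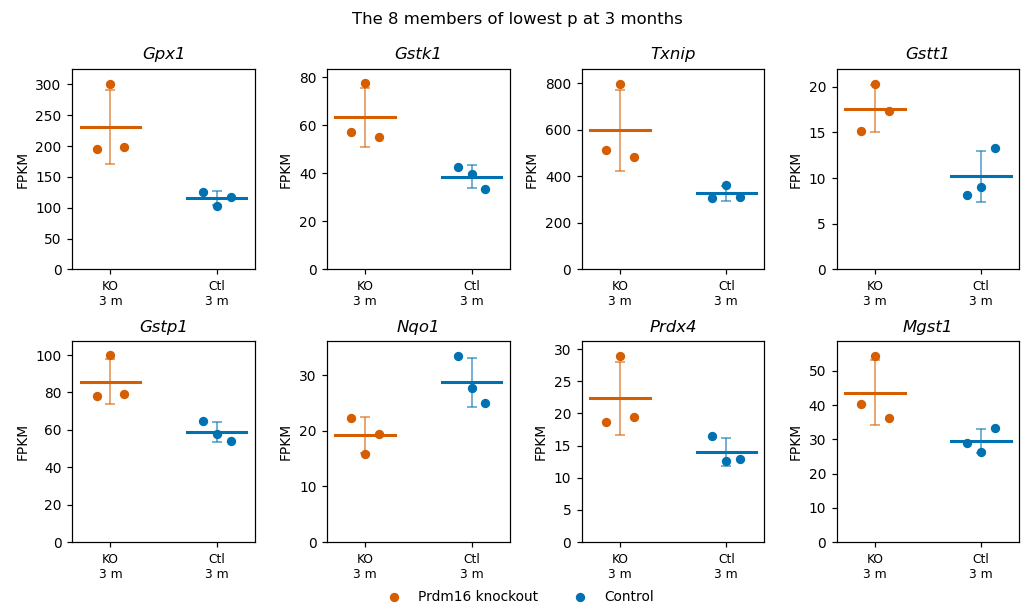
FPKM of the 8 members of lowest p at 3 months in each knockout (left) and control (right) library, with group means as bars and SD as error bars (n = 3 each). The knockout points lie above all controls in 7 of the panels, among them Gpx1 at 196 to 300.4 FPKM, and below them for Nqo1.

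Directions were mixed at 3 months for glutathione synthesis and reduction, and for the NRF2 group of Nfe2l2, Nqo1 and Hmox1. Glutathione synthesis and reduction had 2 of 5 differences above 0 (median -0.09, -0.17 with median-of-ratios scaling and -0.03 without knockout replicate 2). Gclc and Gclm, the subunits of the rate-limiting ligase, differed by -0.09 and -0.18, glutathione reductase Gsr by 0.03 and the mitochondrial NADPH source Nnt by -0.28, all with overlap, and glutathione synthetase Gss was apart by 0.20. Nfe2l2 read 16.4, 18.6 and 16.6 FPKM in knockout hearts, against 19.0, 20.4 and 18.6 FPKM in controls, a difference of -0.16. Nqo1, a quinone reductase and classical NRF2 target, read 22.3, 15.9 and 19.4 FPKM in knockout hearts, against 33.5, 27.7 and 24.9 FPKM in controls. Its highest knockout was below its lowest control, with means of 19.2 ± 3.19 FPKM in knockout and 28.7 ± 4.39 FPKM in control hearts (SD, n = 3 each) and a difference of -0.56 (SE 0.16, adjusted p = 0.152). The heme-degrading enzyme Hmox1 read 7.63, 13.3 and 8.35 FPKM in knockout and 10.7, 7.14 and 5.85 FPKM in control hearts, which overlapped (0.27).

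Among the 3-month knockouts, replicate 2 had the highest member levels. The median log2 value of the members, set against the mean of the controls, was 0.19, 0.44 and 0.13 in knockout replicates 1, 2 and 3, against 0.10, 0.00 and -0.12 in the controls. Members were higher in replicate 2 than in replicate 1 in 27 of 38 cases, where 60.9% of all genes were. Without replicate 2 the member median at 3 months was 0.14, with 25 of 38 above 0, and the peroxidases and transferases stood at 0.28 and 0.29.

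**Figure D2:**
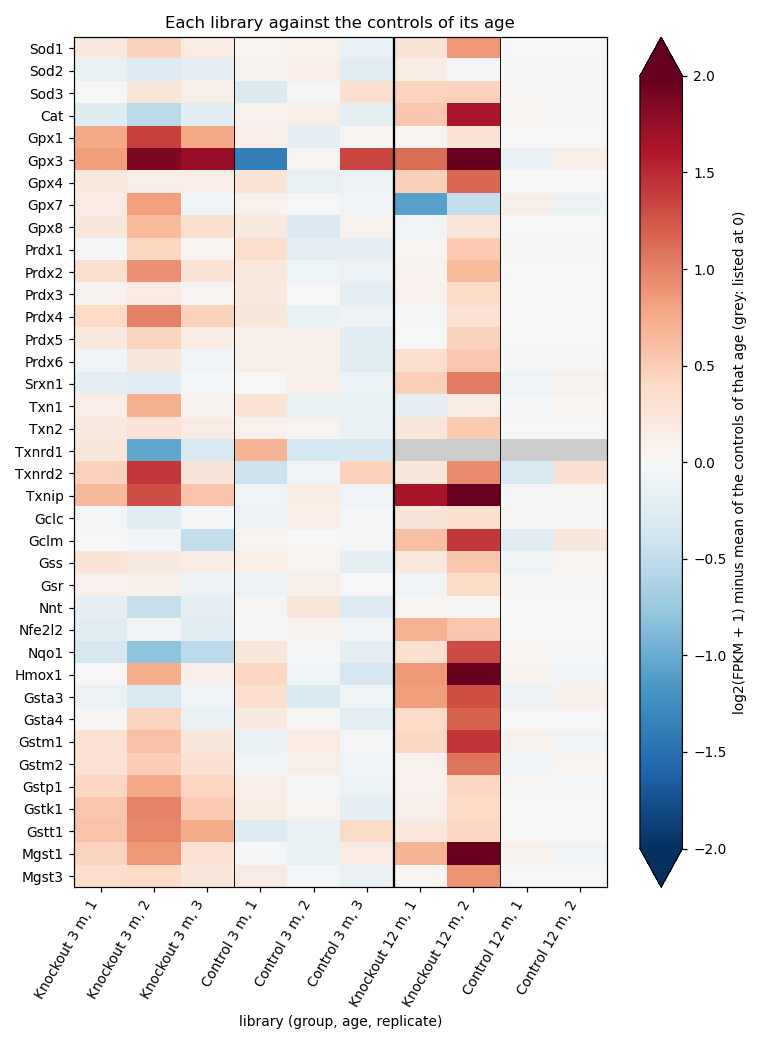
log2(FPKM + 1) of each member (rows, by role) in each of the 10 libraries (columns, knockout left of control within an age), minus the mean of the control libraries of that age, with grey for Txnrd1, listed at 0. Knockout replicate 2 at 12 months is the darkest red column, with a member median of 0.54 against 0.23 in knockout replicate 1.

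At 12 months the members lay higher in knockout hearts more often than genes in general did, but no single member passed the test. Of 37 tested members 0 were called by limma, where 0.395% of 13179 genes were called. At an unadjusted p under 0.05 there were 12, which were 11 higher and 1 lower, against 13.6% of all genes (7.58% higher and 5.98% lower). The difference was above 0 in 35 of 37 members, against 51.5% of all genes, with a median of 0.45 over the members and 0.01 over all genes. Both knockout libraries lay above both controls in 30 members and below them in 1, where 50.3% of all genes stood apart (27.3% above and 23.0% below). The smallest exact permutation p for 2 against 2 libraries is 0.333. When each library was rescaled to a common sum the median of all genes moved to -0.27, and the members' median was 0.13 with 24 of 37 above 0, against 18.5% of all genes.

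**Figure D3:**
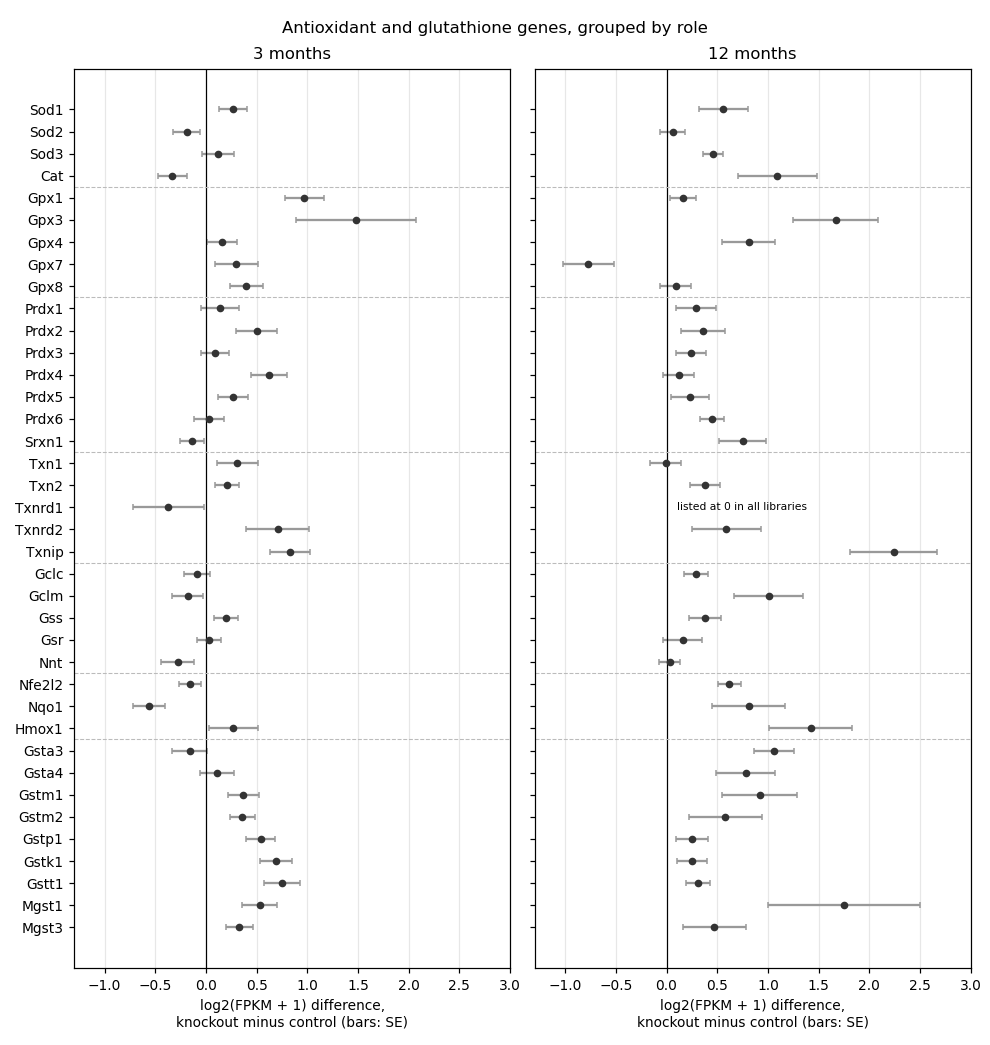
Difference in log2(FPKM + 1), knockout minus control, for each member at 3 months (left) and 12 months (right), with SE as bars and members grouped by role. At 12 months 35 of 37 points lie right of 0, Gpx7 lies furthest left at -0.77 and Txnip furthest right at 2.24.

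Knockout replicate 2 weighs heavily at 12 months. It was above knockout replicate 1 in 34 of 37 members, by a median of 0.45 on the log2 scale, where 48.5% of all genes were. Without it the member median was 0.23, with 32 of 37 above 0. With it as the sole knockout, 30 members and 4208 genes were called, and with replicate 1 as the sole knockout 3 members (Gpx4, Nfe2l2 and Txnip) and 613 genes. In both of these fits the single knockout library is assumed to vary like the controls, and without either control 0 members were called.

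The peroxide-removing genes at 12 months were led by Gpx3 in level. Gpx3 read 31073 and 66897 FPKM in knockout hearts, against 12984 and 15718 FPKM in controls. The means were 48985 ± 25332 FPKM in knockout and 14351 ± 1933 FPKM in control hearts (SD, n = 2 each), a ratio of 3.41, with a difference of 1.67 (SE 0.42, adjusted p = 0.259). Gpx3 took 2.90% and 5.71% of all summed FPKM in the knockout libraries and ranked 7th and 3rd among all genes, against 1.46% and 1.75% and ranks 11 and 9 in controls. At 3 months it took 0.0235% to 0.221% in the 6 libraries. The tables differ in library preparation and may differ in the transcript lengths or processing behind FPKM, which would change these shares and ranks, so they are read only within an age.

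The remaining peroxidases split at 12 months. Gpx4 read 1548 and 2472 FPKM in knockout hearts, against 1106 and 1119 FPKM in controls (0.81, SE 0.26, adjusted p = 0.330). Gpx1, which stood out at 3 months, read 120.3 and 142 FPKM in knockout and 117 and 118 FPKM in control hearts, a difference of 0.16 that turned to -0.17 with the common-sum scaling. Gpx7 alone was lower without overlap, at 6.49 and 10.4 FPKM in knockout and 16.0 and 13.8 FPKM in control hearts (-0.77, SE 0.25, adjusted p = 0.329). Gpx8 overlapped. The 5 peroxidases had 4 differences above 0 and a median of 0.16, which was -0.17 with the common-sum scaling and 0.04 without knockout replicate 2.

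Superoxide dismutases and catalase were above 0 in 4 of 4 cases at 12 months, with a median of 0.51 (3 of 4 and 0.20 with the common-sum scaling). Cat read 107 and 229 FPKM in knockout hearts, against 75.2 and 71.7 FPKM in controls, the opposite side from 3 months, with a difference of 1.09 (SE 0.39, adjusted p = 0.364). Sod1 read 293 and 446 FPKM in knockout and 242 and 247 FPKM in control hearts. Sod3 was the most even, with 11.6 and 11.7 FPKM in knockout and 8.32 and 8.09 FPKM in control hearts (0.46, SE 0.10, adjusted p = 0.247). Sod2 overlapped, at 141 and 124 FPKM in knockout and 128 and 125 FPKM in control hearts.

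Peroxiredoxins and sulfiredoxin were above 0 in 7 of 7 cases at 12 months (median 0.29), 3 of 7 with the common-sum scaling (median -0.04) and 6 of 7 without knockout replicate 2 (median 0.08). Prdx6, a peroxiredoxin that uses glutathione, read 222 and 253 FPKM in knockout hearts, against 171 and 175 FPKM in controls (0.45, SE 0.12, adjusted p = 0.279). Srxn1 read 18.6 and 27.8 FPKM in knockout and 12.3 and 14.0 FPKM in control hearts (0.75, SE 0.23, adjusted p = 0.314). Prdx2, among the most abundant members, read 527 and 779 FPKM in knockout and 502 and 498 FPKM in control hearts, a gap that rests on replicate 2. Prdx1, Prdx3 and Prdx5 differed by 0.29, 0.24 and 0.23 without overlap. Prdx4 overlapped, at 23.5 and 29.7 FPKM in knockout and 24.2 and 24.3 FPKM in control hearts.

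Txnip had the largest difference of all members at 12 months. It read 349 and 801 FPKM in knockout hearts, against 109.5 and 112 FPKM in controls, with means of 575 ± 319.9 FPKM in knockout and 111 ± 1.93 FPKM in control hearts (SD, n = 2 each). The difference was 2.24 (SE 0.43, adjusted p = 0.210), and it was 1.65 without knockout replicate 2 and 2.84 without replicate 1. Txn2 was apart by 0.38, while Txn1 (-0.01) and Txnrd2 (0.59) overlapped. Txnrd1 was listed at 0 in all 4 libraries at 12 months and was not tested. It is a gene of general use read at 113 to 371 FPKM at 3 months, so the 0 may be a failed estimate.

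The NRF2 genes were 3 of 3 above their controls at 12 months, where 27.3% of all genes were above theirs. Their median was 0.81 (0.49 with the common-sum scaling). Nfe2l2 read 43.5 and 38.9 FPKM in knockout hearts, against 26.2 and 26.7 FPKM in controls, and here replicate 2 was the lower knockout. The means were 41.2 ± 3.20 FPKM in knockout and 26.5 ± 0.306 FPKM in control hearts (SD, n = 2 each), and the difference was 0.62 (SE 0.11, adjusted p = 0.201), the lowest adjusted p of the members at this age. Hmox1 read 8.12 and 18.9 FPKM in knockout and 4.26 and 3.79 FPKM in control hearts (1.42, SE 0.41, adjusted p = 0.299). Nqo1 read 31.2 and 62.6 FPKM in knockout and 25.5 and 24.2 FPKM in control hearts (0.81, SE 0.36, adjusted p = 0.422). The knockout libraries of Hmox1 and Nqo1 differed from each other by more than the lower of them differed from the controls.

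Glutathione synthesis and reduction had 5 of 5 differences above 0 at 12 months, with a median of 0.29 (0.03 with the common-sum scaling). Gclm, the modifier subunit of the ligase, read 38.3 and 68.4 FPKM in knockout and 21.1 and 29.4 FPKM in control hearts (1.01, SE 0.34, adjusted p = 0.352). Gclc, the catalytic subunit, read 4.86 and 5.19 FPKM in knockout and 3.97 and 3.86 FPKM in control hearts. Gss was apart by 0.38 and Nnt by 0.03, and Gsr overlapped.

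Glutathione transferases lay above both controls in 9 of 9 cases at 12 months, where 27.3% of all genes did. Their median was 0.58, with 0.26 on the common-sum scaling (7 of 9 above 0) and 0.21 without knockout replicate 2. Gsta3, an alpha-class enzyme, read 10.2 and 14.3 FPKM in knockout hearts, against 4.87 and 5.74 FPKM in controls (1.06, SE 0.20, adjusted p = 0.209). Mgst1 read 76.9 and 341 FPKM in knockout and 50 and 45 FPKM in control hearts, the widest relative gap between knockout libraries, and its SE of 0.75 was the largest of the members (1.75, adjusted p = 0.410). The genes that led at 3 months differed less here, with Gstk1 at 66.6 and 82.3 FPKM in knockout and 61.8 and 62.2 FPKM in control hearts. Gstt1 read 19.1 and 22.1 FPKM in knockout and 16.3 and 16.4 FPKM in control hearts, and Gstp1 read 40.7 and 51.7 FPKM in knockout and 39.3 and 37.7 FPKM in control hearts. Gsta4, which acts on lipid aldehydes, Gstm1, Gstm2 and Mgst3 differed by 0.78, 0.92, 0.58 and 0.47.

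**Figure D4:**
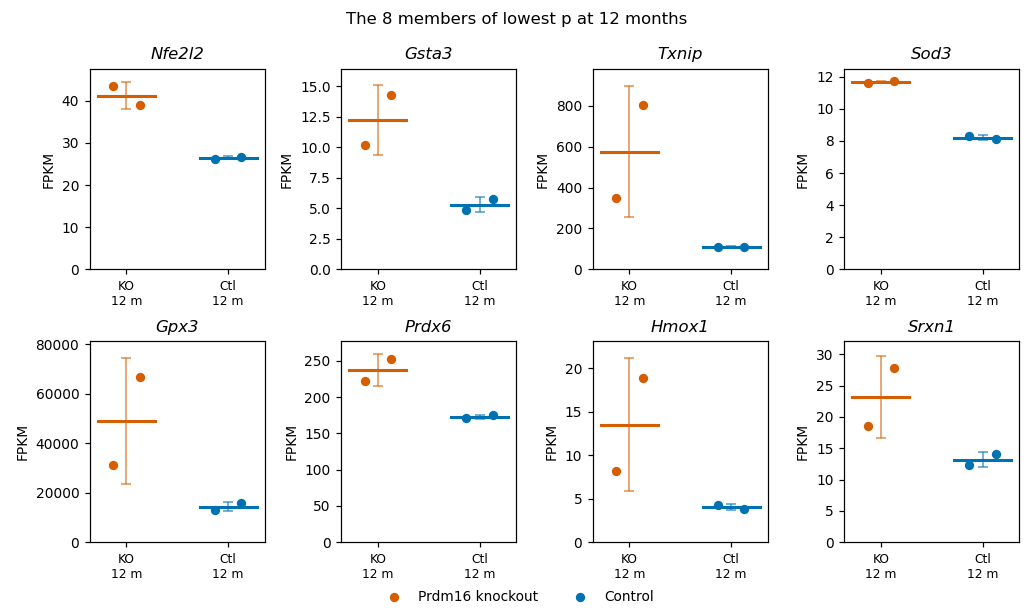
FPKM of the 8 members of lowest p at 12 months in each knockout (left) and control (right) library, with group means as bars and SD as error bars (n = 2 each). Both knockout points lie above both controls in every panel. The knockouts are close together for Nfe2l2 (43.5 and 38.9 FPKM) and Sod3 (11.6 and 11.7 FPKM) and far apart for Txnip, Gpx3 and Hmox1.

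The difference between ages was tested on its own, as the knockout-minus-control difference at 12 months minus that at 3 months. Nfe2l2 was the sole member to pass, 1 of 37, where 1.38% of 11580 genes were called (0.656% upwards and 0.725% downwards). Its difference was 0.78 larger at 12 months than at 3 months (SE 0.16, limma interaction, Benjamini-Hochberg adjusted p = 0.0473), with a rank of 154 by p among all genes. At an unadjusted p under 0.05 there were 11 members, 9 with a higher and 2 with a lower difference at 12 months, against 15.3% of all genes (5.65% higher and 9.66% lower). The contrast was above 0 in 26 of 37 members, against 40.8% of all genes, with a median of 0.22 over the members and -0.08 over all genes. With the common-sum scaling the contrast was above 0 in 18 of 37 members, with a median of -0.00. All genes then had 21.5% above 0 and a median of -0.27. The lean was narrower without knockout replicate 2 at 12 months, at 19 of 37 with a median of 0.01. All genes in that fit had 43.4% above 0 and a median of -0.06.

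The call of Nfe2l2 sits at the threshold. It was kept without knockout replicate 2 at 3 months, or without either knockout at 12 months (adjusted p = 0.0461, 0.0423 and 0.0318). It was lost without any of the other 7 libraries in turn (adjusted p of 0.0723 to 0.248) and with the common-sum scaling (0.57, adjusted p = 0.367).

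The members next in order of p follow, from a list that was chosen for antioxidant roles. Gsta3 had a contrast of 1.22 (SE 0.28, adjusted p = 0.0654), Cat of 1.42 (SE 0.37, adjusted p = 0.0970), Nqo1 of 1.37 (SE 0.36, adjusted p = 0.0988), Srxn1 of 0.88 (SE 0.24, adjusted p = 0.102) and Gclm of 1.19 (SE 0.34, adjusted p = 0.122). Cat and Nqo1 were the 2 members whose knockout libraries lay wholly below the controls at 3 months and wholly above them at 12 months, a pattern held by 1.34% of the genes tested at both ages. The reverse tendency was seen for Gpx7 (-1.08, SE 0.36, adjusted p = 0.173) and Gpx1 (-0.82, SE 0.27, adjusted p = 0.173). With replicate 2 as the sole knockout at 12 months, the contrasts were 1.96 for Cat, 1.86 for Nqo1 and 1.44 for Gsta3. In that fit they were 1.16 for Srxn1 and 1.60 for Gclm. The lowest contrasts over the alternatives were 0.87 for Cat, 0.88 for Nqo1, 0.99 for Gsta3 and 0.60 for Srxn1.

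**Figure D5:**
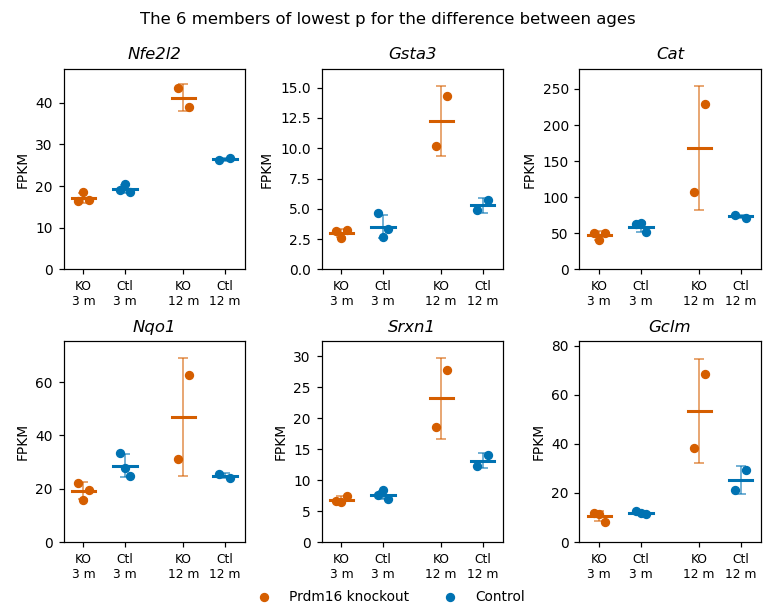
FPKM of the 6 members of lowest p for the difference between ages in every library, with knockout left of control within each age, means as bars and SD as error bars (n = 3 each at 3 months, n = 2 each at 12 months). Nqo1 and Cat lie below their controls at 3 months and above them at 12 months. Levels are not comparable across ages.

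Across both ages 14 members stood above their controls each time, a pattern held by 7.17% of the genes tested at both ages. A further 14 overlapped at 3 months and were above at 12 months, where 19.9% of genes did so, and Gpx8 and Prdx4 did the opposite, as did 9.13% of genes. No member was above its controls at 3 months and below them at 12 months, or below them at both ages, patterns held by 3.69% and 1.11% of genes. Sod2, Txn1, Txnrd2 and Gsr overlapped at both ages, against 37.6% of genes. In the NRF2 group of 3, which holds the called Nfe2l2, all contrasts between ages were above 0 at an unadjusted limma p under 0.05. Over all genes 5.65% were, and the median of the group was 1.15 (0.95 with the common-sum scaling). For the glutathione peroxidases the median contrast was -0.31. It was 0.22 for the transferases and 0.14 for the peroxiredoxins and sulfiredoxin. Without knockout replicate 2 at 12 months these turned to -0.27 and -0.10, against -0.06 over all genes. With the common-sum scaling they were -0.00 and -0.08, against -0.27 over all genes.

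Neighbouring pathway genes were listed separately from the members. Among 15 other glutathione genes tested at both ages, Chac1 and Glo1 passed the contrast between ages. Glo1, a glyoxalase that uses glutathione to clear methylglyoxal, read 53.0, 55.4 and 48.9 FPKM in knockout hearts, against 32.6, 34.4 and 28.7 FPKM in controls at 3 months, where it rose (0.70, SE 0.12, adjusted p = 0.0449), 1 of 16 called in that list. That call held in 4 of 14 alternatives and failed without each of the 6 libraries in turn (0.60 to 0.76 over the alternatives). At 12 months it read 33.0 and 32.7 FPKM in knockout and 45.6 and 44.0 FPKM in control hearts (-0.44, adjusted p = 0.252), and the contrast between ages was -1.14 (SE 0.17, adjusted p = 0.00981). Chac1, which breaks down glutathione, read 2.12, 1.93 and 1.92 FPKM in knockout and 2.26, 3.10 and 2.47 FPKM in control hearts at 3 months. At 12 months Chac1 read 2.97 and 4.68 FPKM in knockout and 1.04 and 0.764 FPKM in control hearts, and its contrast was 1.59 (SE 0.24, adjusted p = 0.0124). The contrasts of Glo1 and Chac1 held in 15 of 18 and 14 of 17 alternatives and were lost without either 12-month control.

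The NRF2 regulators and other NRF2 targets had 17 of 21 differences above 0 at 12 months (median 0.43, or 11 of 21 and 0.13 with the common-sum scaling) and 10 of 21 at 3 months (median -0.00), with 0 called at either age. In the contrast between ages 18 of 21 were above 0 (median 0.41, or 0.19 without knockout replicate 2 at 12 months) and Ephx1, an epoxide hydrolase, was called (1.37, SE 0.26, adjusted p = 0.0308), a call that held in 8 of 18 alternatives. Ephx1 read 31.7 and 50.5 FPKM in knockout hearts, against 15.4 and 14.5 FPKM in controls at 12 months, and 9.64, 12.4 and 10.5 FPKM in knockout and 10.2, 11.3 and 11.0 FPKM in control hearts at 3 months. Bach1, a repressor that competes with NRF2, and Keap1, which holds NRF2 in the cytosol for breakdown, differed by 0.23 and 0.24 at 12 months (adjusted p = 0.565 and 0.420).

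Among NADPH-supplying enzymes 1 of 14 passed the contrast between ages. Tkt, the transketolase of the pentose phosphate pathway, read 11.7 and 10.9 FPKM in knockout hearts, against 24.5 and 25.5 FPKM in controls at 12 months, and 8.05, 9.94 and 7.43 FPKM in knockout and 6.64, 8.58 and 9.16 FPKM in control hearts at 3 months (contrast -1.14, SE 0.22, adjusted p = 0.0337). Among genes that make superoxide or peroxide 1 of 8 passed. Xdh, the xanthine oxidoreductase, read 24.3 and 18.7 FPKM in knockout hearts, against 7.26 and 7.19 FPKM in controls at 12 months, and 7.11, 6.13 and 6.70 FPKM in knockout and 6.39, 8.36 and 6.17 FPKM in control hearts at 3 months (contrast 1.49, SE 0.22, adjusted p = 0.00981). Tkt and Xdh did not pass at 12 months alone (adjusted p = 0.0843 and 0.102), and their contrasts held in 8 and 14 of 18 alternatives. Without either 12-month control both contrasts and that of Ephx1 were lost, and those of Ephx1 and Tkt were also lost without 5 of the 6 libraries of 3 months in turn (all but knockout replicate 2 for Ephx1 and control replicate 3 for Tkt). The glutaredoxin, thioredoxin-like and methionine sulfoxide repair list had 0 called of 14 to 16 in any comparison, with 3 higher and 1 lower at an unadjusted p under 0.05 at 3 months, 1 and 1 at 12 months, and 2 and 2 in the contrast between ages.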

How the data were processed

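The authors deposited FPKM values, 1 table per age with 1 column per library and no counts. They named the 12-month table as having no outliers and the 3-month table as having all samples. Whether libraries were left out at 12 months, and by what rule, is not known here. Per the labels' protocols, a strand-specific poly(A) kit served at 3 months, and the libraries of 12 months were made and sequenced by a genome institute. Per the submitters' processing notes, the tools were Cufflinks 2.1.1, STAR 2.5.1b, TopHat2 2.1.0 and FastQC, and the builds GRCm38 and mm10, with no role named for any of them. FPKM depends on the length given to each gene and on the few most abundant genes.

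In the 3-month table of 46855 rows, 69 rows with a repeated identifier were added to their first row. Identifiers were matched to GENCODE M21 for 46297 and 46484 genes. Within an age, genes averaging 1 FPKM or more were tested on log2(FPKM + 1) with limma 3.58.1 in R 4.3.3 (empirical Bayes with a trend), as knockout minus control per age. Benjamini-Hochberg adjustment ran over all genes tested, and an adjusted p under 0.05 was called. The log2 scale with this pseudocount understates the change of low genes. The difference between ages was the interaction contrast over 10 libraries. Single members were also given exact two-sided permutation tests. "Above 0" and "apart" count members with no test of the list. The fits of each age were tested on simulated data, and the interaction contrast was not. Summed FPKM per library was 516272.0 to 718787.4 at 3 months and 890180.7 to 1171103.7 at 12 months. At 12 months 86.7% to 89.5% of low values were whole multiples of 1 fragment (tolerance 0.05 fragments), which gives 26.1 and 21.4 M fragments for the knockout and 29.4 and 30.9 M for the control libraries. At 3 months 19.1% to 38.0% were, so depth there is unknown.

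All 38 members are named. Every library is given for members called in any comparison, the 8 of lowest p at each age, the 5 of lowest p between ages and the 3 of highest mean at each age. Gclm, Gclc, Txnrd1, Txnrd2, Gpx7 and Sod2, and of the other lists Keap1, Bach1, Sqstm1, Mafk and Osgin1, were added after their values were seen. The members and all gene lists were chosen with earlier results of these data known. Alternatives were other pseudocounts (0.1 and 0.5), filters (none, or 5 FPKM), scalings (median of ratios, or rescaling to TPM, the common sum), no variance trend, the replicate number as a block, and each library left out.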

Additional observations from a re-analysis of the deposited data

Results flagged for a closer look

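Nfe2l2, the gene of NRF2, stood out because its knockout-minus-control difference was larger at 12 months than at 3 months by 0.78 on the log2 scale, a test of the difference itself (limma interaction, Benjamini-Hochberg adjusted p = 0.0473). Its 2 knockout libraries at 12 months were above both controls, and its 3-month groups overlapped. The part of sex-linked expression, which splits the 12-month groups the same way, was not tested.

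Cat and Nqo1 stood out because every knockout library lay below every control at 3 months and above every control at 12 months. The differences between ages were 1.42 for Cat (adjusted p = 0.0970) and 1.37 for Nqo1 (adjusted p = 0.0988), which did not pass the same test. No group had the 4 libraries needed to look for single libraries far from the rest.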

How the results depend on the processing

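Calls over all genes moved with several choices. Against 91 at 3 months there were 10 with no filter, 59 with median-of-ratios scaling and 24 to 77 with 1 library left out. Against 52 at 12 months there were 17 with no filter and 0 to 4208 with 1 library left out (0 without either control, with 425 and 421 genes at an unadjusted p under 0.05). Against 160 between ages there were 39 to 783 with 1 library left out. Replicate numbers did not pair the libraries (same-number correlations of deviations -0.121, -0.458 and -0.143 at 3 months and -0.006 at 12 months), and the replicate block gave 29 calls at 3 months and 55 between ages.

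Members called at 3 months became 1 (Gpx1) with the 5 FPKM filter and with TPM rescaling, and 0 to 0 with 1 library left out. At 12 months they ranged from 0 to 30 with 1 library left out. Between ages the call of Nfe2l2 became 0 with a pseudocount of 0.1 (adjusted p = 0.0507), TPM rescaling, no variance trend (adjusted p = 0.0528) and the replicate block (adjusted p = 0.161), and 0 to 11 members passed with 1 library left out. It held in 7 of 18 alternatives. The median at 3 months was 0.14 to 0.30 with 1 library left out and 0.13 with median-of-ratios scaling, and 25 to 28 members were above 0 with 1 library left out. At 12 months the median was 0.13 with TPM rescaling and 0.23 to 0.54 with 1 library left out, with 32 to 36 members above 0. The cause of these shifts was not tested, except that a filter alters the number of genes adjusted over. TPM rescaling divides each library by its own sum and so moves its genes together. At 12 months the median of all genes went from 0.01 to -0.27 with it.

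Signs turned in 18 values, all uncalled. At 3 months Prdx6 went to -0.08 with median-of-ratios scaling, -0.07 with TPM, -0.08 without control replicate 3 and -0.06 without knockout replicate 2 (up to 0.09 with 1 library left out). Without control replicate 1 Sod3 was -0.01 (up to 0.28 without others) and Gsta3 0.01 (down to -0.30). At 12 months TPM gave -0.17 for Gpx1, -0.19 for Prdx4, and -0.07 for Gstp1 and Gstk1, and Prdx4 was -0.04 without knockout replicate 2 (0.28 without replicate 1). Between ages Sod1 was -0.02 without the 12-month knockout replicate 2 (0.59 without replicate 1). Gpx3 was -0.03 with TPM, -0.48 without the 3-month control replicate 3, -0.13 without the 3-month knockout replicate 1 and -0.36 without the 12-month knockout replicate 2 (up to 0.88 without others). Prdx2 was 0.06 without the 3-month knockout replicate 2 and 0.13 without the 12-month knockout replicate 1 (down to -0.43). Of the other named values 773 kept direction and side, 32 passed anew and 11 no longer passed. With the longer promoter motif TGACNNNGCA the share was 6.45% of matched members, against 3.45% of genes.

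Groups of 2 or 3 libraries, a 12-month split that follows sex-linked genes, unknown depth at 3 months and values already scaled by the authors limit all of this. With 1 library in an arm, it is assumed to vary like the others. Over the tested genes, the log2 ratio between the 12-month controls had a robust SD of 0.113. It was 0.416 between the 12-month knockouts and 0.145 to 0.314 within the groups of 3 months.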

Other observations

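The metallothioneins, small cysteine-rich proteins that bind metals and scavenge radicals, were not among the members and were 3 of 3 above 0 at 12 months, with a median log2 difference of 1.62 (2 of 3 and 1.10 without knockout replicate 2). Mt1 read 218 and 450.1 FPKM in knockout hearts, against 101 and 101 FPKM in controls (limma, adjusted p = 0.252). Mt2 read 37.2 and 140.3 FPKM in knockout hearts, against 9.18 and 11.2 FPKM in controls (adjusted p = 0.259). Neither passed the test, and in both the higher library was knockout replicate 2. At 3 months Mt1 read 227, 267 and 187 FPKM in knockout and 232, 212 and 197 FPKM in control hearts, which overlapped. The contrast between ages was 1.55 for Mt1 (limma, adjusted p = 0.0749) and 2.86 for Mt2 (adjusted p = 0.0580). Mt3 went the other way, with a contrast of -1.40 (adjusted p = 0.481). Its difference was 1.59 at 3 months (adjusted p = 0.213) and 0.19 at 12 months.

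Sqstm1, the autophagy receptor that also binds KEAP1, read 337 and 622 FPKM in knockout hearts, against 168 and 175 FPKM in controls at 12 months, and 178, 203 and 169 FPKM in knockout and 197, 197 and 166 FPKM in control hearts at 3 months. Its contrast between ages was 1.44 (adjusted p = 0.0564), the same adjusted p as for Mafk, a small partner of NRF2 (1.20), and Osgin1, another NRF2 target (0.97).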
